A study of Mus musculus with 8 samples.

Results

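Mup4, Mup5, Lcn11 and 5430401F13Rik are 4 mouse transcripts whose levels were followed here in polysome fractions of the main olfactory epithelium, with and without the RNA-binding protein gene Mex3a. They are 4 of the 21765 gene rows of the deposited table. Mup4, Lcn11 and 5430401F13Rik were selected on their genotype difference, being higher in the Mex3a conditional knockout (cKO) than in wild type (WT) in these same libraries, and Mup5 was added as the close relative of Mup4. The genotype values of all 4 are therefore given as a description, without a test. All 4 passed the filter on low values, a mean of at least 1 TPM (transcripts per unit of a library's total, corrected for transcript length), as did 16097 genes in all. Mup5 was not higher in cKO, so the working name of the set, transcripts raised in the knockout, holds for 3 of its 4 members.

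The study separated lysates of main olfactory epithelium, dissected in phosphate-buffered saline with cycloheximide at 100 µg/mL, into about 42 fractions of 350 µL each. Cycloheximide stops elongating ribosomes on the mRNA. Of each fraction 50 µL was pooled, from fractions 27 to 34 as early polysomes and from fractions 35 to 42 as late polysomes, and the pooled RNA was sequenced. There were 4 groups of 2 libraries: WT early, WT late, cKO early and cKO late, made from 2 lysates of each genotype. WT stands for Mex3a flox/flox or Mex3a flox/+ tissue without Cre, so that the controls also carry the floxed allele. cKO stands for Mex3a flox/flox tissue with Cre. Strain, sex, age and the number of animals behind a lysate were not given in the sources used here. The p-values below therefore measure only the spread between these libraries. The series' design text describes transgenic reporter mice and sorted cells, which the labels of these 8 libraries do not mention. In bulk tissue such as this, fewer cells of a type and less RNA per cell cannot be told apart.

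Lipocalins are small secreted proteins folded into a barrel that holds a hydrophobic ligand. In the nose, lipocalins such as the odorant-binding proteins are released into the mucus by glands. The major urinary proteins, which Mup4 and Mup5 encode, are lipocalins known from liver and urine, where they bind volatile pheromones, and some members of the family are made in glands of the nose, eye and mouth instead. Lcn11 is a further lipocalin gene. 5430401F13Rik has only a clone name.

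Mup4 and Mup5 both lie in the major urinary protein cluster on chromosome 4 (GRCm38.p6, RefSeq), Mup4 from 59956804 to 59960667 and Mup5 from 61831319 to 61858043, both on the minus strand. Their coding sequences, of 534 and 540 bases in transcripts of 7 exons each, were identical at 92.0% of the aligned positions (497 of 540). The starts of both coding sequences are shown so that these near-twins can be compared. The letters run from the start codon, and capitals mark the bases that differ between the pair or are present in only 1 of them.
Mup4: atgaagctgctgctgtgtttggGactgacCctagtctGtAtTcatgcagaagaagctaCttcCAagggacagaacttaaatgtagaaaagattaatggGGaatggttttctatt
Mup5: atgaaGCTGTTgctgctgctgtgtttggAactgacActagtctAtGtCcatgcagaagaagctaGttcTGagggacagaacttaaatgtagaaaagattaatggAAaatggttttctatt
Over these first 114 bases of Mup4 and 120 of Mup5, 10 and 16 bases respectively are in capitals. Of the 50-base windows of the whole coding sequence, 6.6% of those of Mup4 (32 of 485) and 7.74% of those of Mup5 (38 of 491) also occurred in a transcript of another gene, so most of each sequence was its own. For comparison, the coding sequences of Lcn11 and 5430401F13Rik were 46.2% to 48.7% identical to those of the Mup pair and 46.8% identical to each other.

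Mex3a itself checked the genotype labels. Its deposited TPM in WT tissue was 97.4 and 115.6 in the early pools and 93.2 and 95.6 in the late pools. In cKO tissue it was 13.9 and 19.8 in the early pools and 11.1 and 13.8 in the late pools, below every WT value. Differences are given on the log2(scaled TPM + 1) scale, where scaled TPM is the deposited value divided by a scale factor of its library. For Mex3a, limma's fit across all genes with Benjamini-Hochberg adjustment gave an early difference of cKO minus WT of -2.55 (SE 0.18, adjusted p = 0.00459). The late difference was -2.80, with the same SE of 0.18 (adjusted p = 0.00282). Leaving out WT early library 1 gave -2.69 in early (adjusted p = 0.0776), leaving out WT early library 2 gave -2.42 (adjusted p = 0.0489), and leaving out WT late library 1 or 2 gave -2.80 and -2.78 in late (adjusted p = 0.0908 and 0.0962). A conflict stands before all results: WT early library 2 carries the cKO genotype in its genotype label, against its title. Its Mex3a level was that of the WT libraries, it was kept as WT by its title, and the members' fitted differences that rest on it are also given without it. Depth, as whole reads recovered from the steps of the TPM values, ran from 7776792 to 12771079 reads per library, and 17852 to 18966 genes were above 0.

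Mup4 was higher in every cKO library than in any WT library of the same fraction. Deposited Mup4 levels in early polysomes were 170 and 155.1 TPM in WT and 491.6 and 720 TPM in cKO. In late polysomes they were 117.6 and 131.7 TPM in WT and 304.9 and 419.6 TPM in cKO. The groups did not overlap in either fraction, and the lowest cKO library was 3.00 times the highest WT library in early and 2.44 times in late polysomes after scaling. Mean scaled TPM was 165.9 ± 9.08 against 644.9 ± 181.5 in early and 118.1 ± 8.38 against 351.6 ± 69.7 in late polysomes (WT against cKO, SD, n = 2). The fitted difference was 1.92 (SE 0.20; 3.89-fold) in early and 1.55 (SE 0.20; 2.98-fold) in late polysomes on the log2(scaled TPM + 1) scale, a scale that understates the change of low genes. The folds of the members, here and below, are ratios of mean scaled TPM and were not taken from the fitted differences. Of the 16097 genes tested, 11 had a higher difference in early and 28 in late polysomes. These values rest on 435 to 2765 recovered reads per library. Without WT early library 2 the early Mup4 difference was 1.87.

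Mup5, at a like level in the same tissue, did not stand higher in cKO as its near-twin did. Deposited Mup5 levels in early polysomes were 270.1 and 437.8 TPM in WT and 379.5 and 320.6 TPM in cKO. In late polysomes they were 185.2 and 352.6 TPM in WT and 195.7 and 180.3 TPM in cKO. In early polysomes both cKO libraries lay between the WT libraries, and in late polysomes both cKO libraries lay close to the lower WT library. Mean scaled TPM of Mup5 was 362 ± 124.6 against 371.5 ± 38.5 in early and 254.3 ± 109.8 against 183.2 ± 15.4 in late polysomes (WT against cKO, SD, n = 2). The difference cKO minus WT was 0.08 (SE 0.30) in early and -0.40 (SE 0.30) in late polysomes. Its direction rested on single WT libraries: it was -0.28 in early without WT early library 1 and 0.43 without WT early library 2, and over all libraries left out in turn it ran from -0.86 to 0.05 in late polysomes.

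The ratio of Mup4 to Mup5 within a library shows the split of the pair. Mup4 stood at 0.629 and 0.354 times the Mup5 level in WT early and at 0.635 and 0.374 times in WT late. In cKO it stood at 1.3 and 2.25 times in early and at 1.56 and 2.33 times in late. Mup5 was thus the higher of the pair in all 4 WT libraries and Mup4 in all 4 cKO libraries, which come from 2 lysates of each genotype. Since Mup4 was chosen for being higher in cKO and Mup5 as its relative, this split is a description only. The ratio was closer between the early and late pools of a lysate than between the lysates of a genotype. The other Mup genes added little: of the 22 Mup genes that RefSeq lists, 5 were analysed here. Mup6 stood at 0.387 to 5.25 scaled TPM with at most 10 reads in a library, and Mup7 and Mup20 were each above 0 in 1 library.

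**Figure D1:**
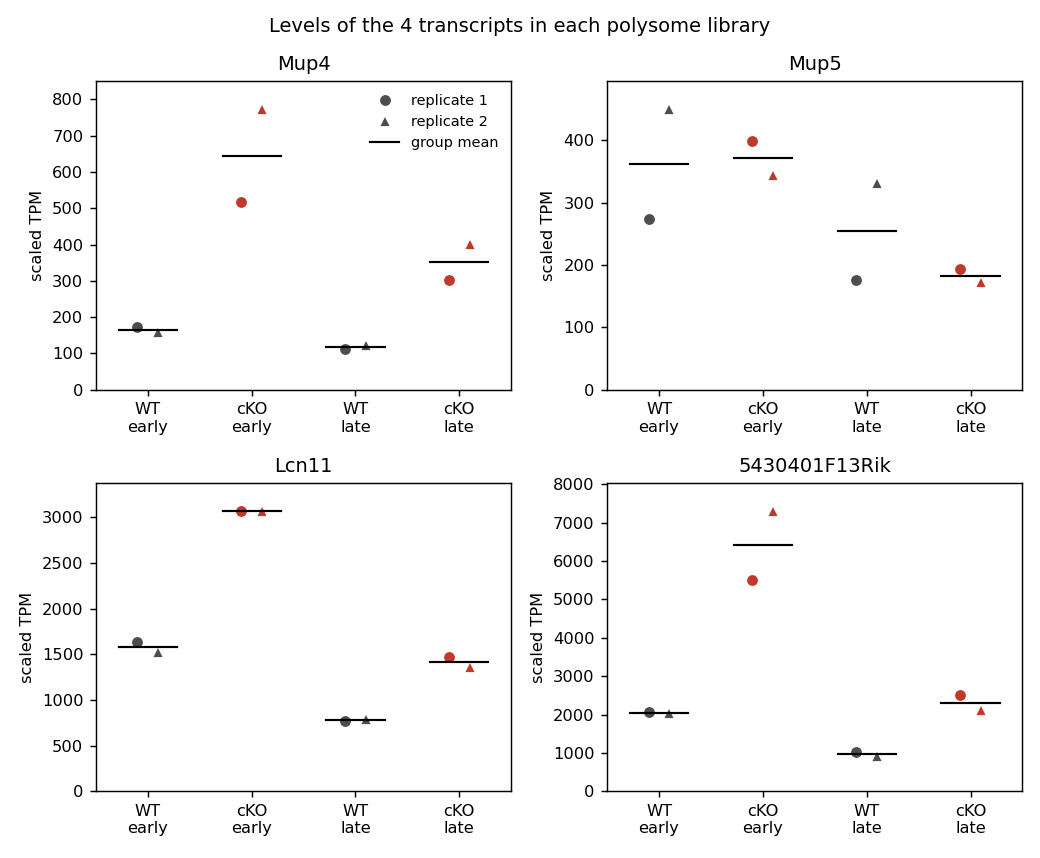
Scaled TPM of Mup4, Mup5, Lcn11 and 5430401F13Rik in the 8 libraries, by genotype and polysome fraction; each point is a library and each bar a group mean of 2 libraries. The cKO points lie above the WT points for Mup4, Lcn11 and 5430401F13Rik in both fractions, while those of Mup5 overlap in both, with means of 362 and 371.5 in early polysomes.

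Lcn11 was higher in cKO by less than Mup4, with little scatter. It lies on chromosome 2 from 25777017 to 25780279 (plus strand, 6 exons), in a lipocalin cluster beside Lcn3 and Obp2b, and none of its 485 coding windows of 50 bases occurred in another gene. Deposited Lcn11 levels in early polysomes were 1614 and 1485 TPM in WT and 2921 and 2852 TPM in cKO. In late polysomes they were 807 and 845.2 TPM in WT and 1479 and 1423 TPM in cKO. The groups did not overlap, with the lowest cKO library at 1.87 times the highest WT library in early and 1.71 times in late polysomes after scaling. Mean scaled TPM was 1581 ± 77.4 against 3066 ± 4.73 in early and 782.7 ± 18.3 against 1413 ± 75.7 in late polysomes (WT against cKO, SD, n = 2). The difference was 0.96 (SE 0.13; 1.94-fold) in early and 0.85 (SE 0.13; 1.81-fold; 120 genes higher) in late polysomes. In early polysomes 70 tested genes had a higher difference than Lcn11. Without WT early library 2 the early Lcn11 difference was 0.90. Over both fractions the Lcn11 values rest on 2225 to 9059 recovered reads per library.

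5430401F13Rik was the most abundant of the set, and its genotype difference was second to that of Mup4. It lies on chromosome 6 from 131543762 to 131553757 (plus strand, 5 exons). Its level is uncertain as that of 1 gene, because 75.6% of its 50-base coding windows (360 of 476) also occurred in transcripts of Gm6619 or Gm16571, which were not analysed here, and how the authors assigned shared reads is not given in the sources used here. Deposited 5430401F13Rik levels in early polysomes were 2031 and 1976 TPM in WT and 5241 and 6806 TPM in cKO. In late polysomes they were 1067 and 987 TPM in WT and 2537 and 2214 TPM in cKO. The groups did not overlap: the lowest cKO library was 2.67 times the highest WT library in early and 2.08 times in late polysomes after scaling. Mean scaled TPM was 2046 ± 19.5 against 6407 ± 1274 in early and 973.5 ± 62.9 against 2315 ± 282.6 in late polysomes (WT against cKO, SD, n = 2). The difference was 1.63 (SE 0.19; 3.13-fold) in early and 1.25 (SE 0.19; 2.38-fold) in late polysomes, and 1.62 in early without WT early library 2.

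Seen over all genes, both cKO libraries lay above both WT libraries for 3 of the 4 members in early polysomes, where 19.6% of all tested genes did so. In late polysomes this held for the same 3 members, against 20.5% of all tested genes. Since the genotype difference chose these members, nothing is read from those shares. Averaged over the fractions of each lysate, cKO minus WT was 1.74 (SE 0.16) for Mup4, 1.44 (SE 0.11) for 5430401F13Rik, 0.90 (SE 0.09) for Lcn11 and -0.16 (SE 0.25) for Mup5. Without WT lysate 2, which holds the library with conflicting labels, these values were 1.75, 1.40, 0.89 and 0.24. The Mup5 value thus turned sign, and without WT lysate 1 it was -0.57. By limma at an adjusted p under 0.05, 0.0435% of the 16097 tested genes differed between genotypes in early polysomes (3 genes, or 0.0186%, higher and 4 genes, or 0.0248%, lower in cKO). In late polysomes 0.0124% did (2 genes, both lower), and in lysate means 0.00621% (1 gene, lower). By voom on the recovered reads the shares were 0.0745% in early polysomes, 0.0932% in late polysomes and 0.36% in lysate means (0.124% higher). At an unadjusted p under 0.05 by limma they were 6.64%, 9.36% and 11.3%. The counts of other gene groups below are to be read against these shares.

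**Figure D2:**
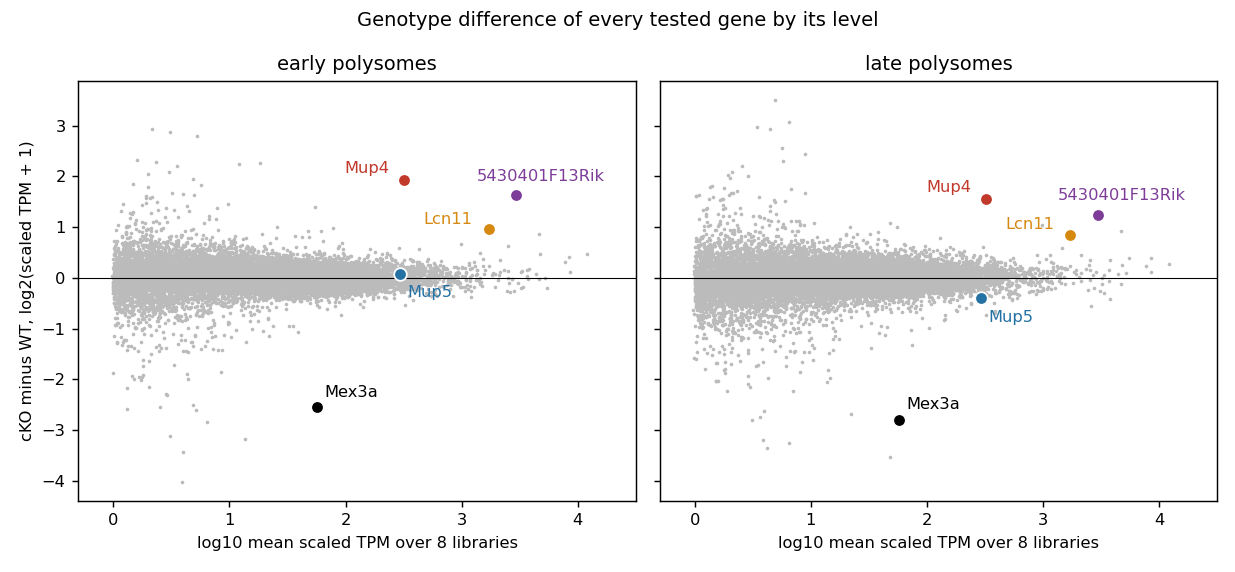
Difference cKO minus WT in log2(scaled TPM + 1) of each of 16097 tested genes (grey) against its mean scaled TPM over 8 libraries (log10 axis), in early and late polysomes; coloured points are the 4 members and the black point is Mex3a. Mup4 (1.92 and 1.55), 5430401F13Rik (1.63 and 1.25) and Lcn11 (0.96 and 0.85) stand above the band of genes of like level, and Mup5 (0.08 and -0.40) lies in or just under it.

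The 4 transcripts, of which 3 were chosen for being higher in cKO, made up a larger share of the polysome TPM in cKO. Their summed level was 0.409% and 0.405% of all TPM in WT early and 0.903% and 1.07% in cKO early. In the late pools it was 0.218% and 0.232% in WT tissue, against 0.452% and 0.424% in cKO tissue. 5430401F13Rik and Lcn11 carried most of it. 5430401F13Rik was the transcript of rank 35 and 34 in early polysomes of WT and of rank 7 and 4 in those of cKO. In late polysomes its rank was 75 and 85 in WT, against 21 and 27 in cKO. Lcn11 moved from rank 45 and 47 to 24 and 21 in early polysomes, and Mup4 from rank 1015 and 1153 to 254 and 146. Rank here orders TPM, which is per length, within a library.

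The 4 transcripts were also compared between fractions, a comparison that averages over genotypes and was not used to choose them. All 4 were lower in late than in early polysomes, each in 4 of 4 lysates. Later fractions hold mRNAs with more ribosomes, and a TPM is a share of its own library, so a lower late value is a smaller share and not a smaller amount. Mup4 in late polysomes stood at 65.1% and 77.8% of its early level in the WT lysates and at 58.5% and 51.8% in the cKO lysates. Mup5 stood at 64.5% and 73.8% in WT and at 48.7% and 50.0% in cKO. Lcn11 lay in a narrow range, with 47.1% and 52.1% in WT and 47.8% and 44.4% in cKO. 5430401F13Rik stood at 49.4% and 45.7% in WT and at 45.7% and 28.9% in cKO, where the second cKO lysate was the lowest of the 16 values.

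By limma with Benjamini-Hochberg adjustment over all 16097 genes, late minus early was -0.67 (SE 0.14, adjusted p = 0.00269) for Mup4 and -0.77 (SE 0.21, adjusted p = 0.0112) for Mup5. It was -1.07 (SE 0.09, adjusted p = 3.3e-05) for Lcn11 and -1.27 (SE 0.13, adjusted p = 6.8e-05) for 5430401F13Rik. All 4 members thus passed as lower, as did 34.6% of all tested genes, and 68.9% passed in either direction. A value lower in 4 of 4 lysates was found for 37.8% of all tested genes. The Mup5 call was lost under quantile normalization (-0.55, adjusted p = 0.0524). The main fit did not pair the early and late pools of a lysate. With the lysate as a block the differences were the same. Their adjusted p by limma was then 0.000707 for Mup4, 0.000377 for Mup5, 0.000396 for Lcn11 and 0.000643 for 5430401F13Rik. Without WT early library 2 the 4 differences were -0.70 for Mup4, -0.60 for Mup5, -1.09 for Lcn11 and -1.27 for 5430401F13Rik (limma, adjusted p = 0.00882, 0.0425, 0.000315 and 0.000594).

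Short coding sequences hold few ribosomes, and those of the 4 members are of like length, 525 to 540 bases. Among the 575 tested genes with a coding length within 10% of that of Mup4 and Lcn11, the median of late minus early was -0.87 (quartiles -1.12 and -0.57). The Mup4 value of -0.67 and the Lcn11 value of -1.07 both lay inside these quartiles. Mup5, at -0.77, lay near the median of -0.86 over 610 genes within 10% of its length. 5430401F13Rik, at -1.27, lay under the lower quartile of -1.12 over the 568 genes near its length.

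**Figure D3:**
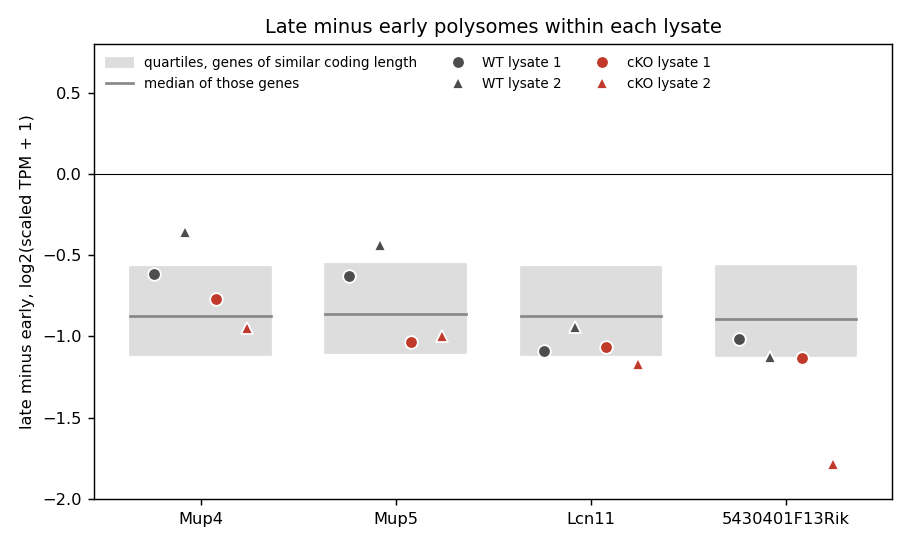
Late minus early difference in log2(scaled TPM + 1) of each member in each of the 4 lysates, with the median and quartiles over genes within 10% of the member's coding length. Every one of the 16 points lies below 0, from -0.36 (Mup4, WT lysate 2) to -1.79 (5430401F13Rik, cKO lysate 2).

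Promoters were read for the 3 members that the RefSeq promoter table holds, as the 250 bases before the RefSeq start on the member's own strand (GRCm38.p6). They are Mup4 at chr4:59960668-59960917 (minus strand), Lcn11 at chr2:25776767-25777016 (plus strand) and 5430401F13Rik at chr6:131543512-131543761 (plus strand). Capitals mark matches to the motifs searched.
Mup4: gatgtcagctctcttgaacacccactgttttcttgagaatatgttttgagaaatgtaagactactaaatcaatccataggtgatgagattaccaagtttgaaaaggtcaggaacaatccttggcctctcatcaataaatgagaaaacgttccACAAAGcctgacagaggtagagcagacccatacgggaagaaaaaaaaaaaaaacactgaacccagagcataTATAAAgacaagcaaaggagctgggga
Lcn11: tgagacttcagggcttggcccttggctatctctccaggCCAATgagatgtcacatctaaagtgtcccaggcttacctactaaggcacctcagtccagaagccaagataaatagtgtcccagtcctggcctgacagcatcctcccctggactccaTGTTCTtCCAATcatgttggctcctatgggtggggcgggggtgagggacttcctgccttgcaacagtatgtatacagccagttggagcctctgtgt
5430401F13Rik: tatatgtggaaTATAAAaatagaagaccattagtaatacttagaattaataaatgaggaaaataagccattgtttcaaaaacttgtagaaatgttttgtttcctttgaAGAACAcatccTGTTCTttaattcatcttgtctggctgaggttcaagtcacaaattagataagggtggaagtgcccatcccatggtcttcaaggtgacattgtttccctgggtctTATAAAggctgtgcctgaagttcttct
The 300-base windows searched also held the first 50 transcribed bases. Mup4 and 5430401F13Rik both held TATAAA, the letters of the TATA box, at -27 to -22 from the start, and 5430401F13Rik held it again at -239 to -234, whereas Lcn11 did not hold it. TATAAA stood on either strand in 13.6% of the 32851 promoters of this length. Lcn11 held CCAAT at -212 to -208 and at -89 to -85, and 37.4% of all promoters held it. TGTTCT, an arm of the steroid receptor element, stood at -96 to -91 in Lcn11 and at -131 to -126 in 5430401F13Rik, which also held its reverse complement at -142 to -137. In 19% of all promoters TGTTCT stood on either strand. The full steroid receptor element, with both arms at their exact spacing, was in none of the 3 windows and in 0.00913% of all promoters (3 promoters). ACAAAG, the core letters of SOX and TCF sites, stood at -98 to -93 in Mup4 and in 18.7% of all promoters. The forkhead letters TGTTTAC (3.65% of all promoters) and the AP-1 letters TGANTCA (7.81%) were in none of the 3. Of the motifs searched, none was shared by all 3 windows. Their GC content was 42.3% for Mup4, 53% for Lcn11 and 38.7% for 5430401F13Rik, beside a median of 52.7%. Such matches describe letters and not binding.

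The members' neighbours that are not members and were measured above the filter had no call between genotypes by limma. Of Lcn11's neighbours, the odorant-binding lipocalin gene Obp2b differed between genotypes by -0.25 in early and -0.24 in late polysomes, and Lcn3 by -0.19 and -0.05, where Lcn11 differed by 0.96 and 0.85. Bmyc, a relative of the Myc gene, differed by 0.29 and 0.12. Beside 5430401F13Rik, the RNA-binding protein gene Ybx3 differed by -0.09 and 0.16, and Magohb, of the exon junction complex, by 0.15 and -0.26. The bitter taste receptor genes Tas2r130 and Tas2r105 on its other side were at 0 in all libraries. Beside Mup4, Inip differed by 0.14 and 0.07 and Snx30, a sorting nexin gene, by -0.13 and 0.08. Mup6, on the other side of Mup4, differed by 0.93 in early and 0.98 in late polysomes (limma, adjusted p = 0.816 and 0.612). That Mup6 difference rests on at most 10 reads in a library. Beside Mup5, Zfp37 differed by -0.19 and -0.33 and Slc31a2, a copper transporter gene, by 0.18 and 0.23.

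The other lipocalin genes were then set beside the members. Of 27 listed, 17 were analysed here and 11 tested. In early polysomes Obp2a stood at 4852 and 4047 scaled TPM in WT and at 3818 and 3880 in cKO, and in late polysomes at 2435 and 2133 in WT and 2227 and 2332 in cKO. Obp2a therefore overlapped between genotypes in late polysomes and was the lower in cKO in early ones, at a level like that of 5430401F13Rik. Obp1a in early polysomes stood at 1173 and 1189 in WT and at 1552 and 1288 in cKO, and in late polysomes at 708 and 1111 in WT and 1381 and 873.8 in cKO. By limma 0 of the 11 passed in early, late or lysate means (2, 1 and 1 at an unadjusted p under 0.05; 0 in each by voom on the recovered reads). Their median difference was -0.08 in early and -0.09 in late polysomes, beside 0.01 and 0.00 over all tested genes. Between fractions 5 of 11 were lower in late polysomes and 2 higher, beside 34.6% and 34.3% of all tested genes, with a median of -0.57 beside -0.01 over all genes, and Obp2a and Obp2b fell by 0.86 and 0.99 (limma, adjusted p = 0.000376 and 0.000738).

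Other secreted products of nasal glands had positive median differences, and none of them passed by limma. Of 30 tested among 41 listed, 0 passed in early polysomes, late polysomes or lysate means by limma (5, 6 and 8 at an unadjusted p under 0.05), with medians of 0.08, 0.23 and 0.11. By voom on the recovered reads 0, 0 and 5 passed, the 5 being Bpifb5, Scgb1c1, Odam, Lyz2 and Wfdc18, all higher in cKO, where 0.124% of all tested genes were called higher by voom. Bpifb5, of the BPI-fold family of secreted lipid-binding proteins, stood at 665.4 and 384.1 scaled TPM in WT and at 972 and 661.7 in cKO in early polysomes, and at 864.1 and 819 in WT and 1737 and 1710 in cKO in late ones. Bpifb5 overlapped between genotypes in early but not in late polysomes, and its lysate-mean difference was 0.85 (limma, adjusted p = 0.319). The secretoglobin gene Scgb1c1 differed by 0.36 and Wfdc18, of the whey acidic protein family, by 0.50 in lysate means (limma, adjusted p = 0.426 and 0.319). The most abundant of the list, Bpifb9b, Bpifa1 and Scgb1c1, differed by 0.42, -0.20 and 0.47 in early polysomes, where Lcn11 differed by 0.96. In late polysomes Bpifb5 differed by 1.03, more than the 0.85 of Lcn11. Between fractions 14 of the 30 were higher in late polysomes and 11 lower, beside 34.3% and 34.6% of all tested genes. The summed level of the list was higher in every cKO than in every WT library of the same fraction, at 25980 and 21360 scaled TPM for WT against 30780 and 27290 for cKO in the early pools and at 32840 and 27750 against 41310 and 36050 in the late pools.

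Markers of the cells that could hold these transcripts give the next comparison. Of 7 markers of Bowman's glands, the mucus glands of olfactory tissue, 0 passed between genotypes by limma or voom (0, 1 and 3 in early, late and lysate means at an unadjusted p under 0.05). Their summed scaled TPM in the early pools was 1877 and 1421 for WT, against 1948 and 1622 for cKO. In the late pools it was 2759 and 2778 for WT, against 3242 and 3382 for cKO. The sums thus overlapped in early polysomes and were higher in cKO in late ones. Without Gpx6, left out after its values were seen, they were 1373 and 1371 for WT against 1560 and 1625 for cKO in the late pools. Gpx6, a glutathione peroxidase, Krt18, a keratin of simple epithelia, and the water channel Aqp5 led the list and differed by 0.20, 0.10 and 0.02 in early and by 0.30, 0.25 and 0.44 in late polysomes. Muc5b, a mucin gene, and Slc12a2, an ion cotransporter gene, differed by -0.06 and -0.08 in early and by -0.09 and -0.01 in late polysomes. The list median was 0.10 in early, 0.19 in late polysomes and 0.20 in lysate means. All 7 were higher in late polysomes (limma), as were 34.3% of all tested genes. Of 16 tested gland transcription factor genes, 0 passed between genotypes by limma or voom (2, 1 and 4 at an unadjusted p under 0.05), with medians of 0.18, 0.14 and 0.17. Creb3l1 and Xbp1, the most abundant of them and both regulators of the secretory pathway, differed by 0.00 and 0.21 in early polysomes. Of these 16 genes, 14, 16 and 15 were positive in early, late and lysate means, beside 8244, 8005 and 8109 of all 16097 tested genes. The summed level of this list was higher in both cKO libraries of each fraction. It was 888.9 and 863.3 scaled TPM for WT against 958.7 and 932.3 for cKO in the early pools. In the late pools it was 1092 and 1139 against 1180 and 1299.

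The defining markers of olfactory tissue were present: the list of mature olfactory neurons, with the olfactory marker protein gene Omp, summed to 7117 to 11400 scaled TPM over the 8 libraries. In late polysomes this sum was lower in both cKO libraries, at 7971 and 8525 for WT against 7922 and 7117 for cKO. In early polysomes it overlapped, at 9148 and 11400 against 10250 and 9994. Of its 11 tested genes, 10 were negative in lysate means, beside 7988 of all 16097 tested genes. No gene of the lists for sustentacular cells, respiratory epithelium, vomeronasal organ, mature neurons, immature neurons or salivary glands passed between genotypes by limma or voom. At an unadjusted p under 0.05 in lysate means there were 2, 2, 1, 1, 1 and 0 of them. Their lysate-mean medians were 0.01 over 14 tested sustentacular genes, 0.16 over 7 respiratory genes, -0.02 over 4 vomeronasal genes, -0.11 over 11 mature and 0.02 over 10 immature neuron genes, and 0.26 over 10 salivary genes. In late polysomes the summed level was higher in both cKO libraries for the sustentacular list, at 15410 and 15870 for WT against 17710 and 17650 for cKO. The same held for the respiratory list, at 7128 and 8571 against 9970 and 10460, and for the vomeronasal list, at 426.1 and 433.6 against 438.7 and 477.9. In early polysomes these 3 sums overlapped. Most of the late respiratory sum was Bpifa1, also in the gland product list, at 6037 and 7361 scaled TPM for WT against 8494 and 8952 for cKO. Reg3g, in the product, sustentacular and respiratory lists, stood at 763.8 and 887.8 for WT against 1076 and 1172 for cKO in late polysomes. These list sums are therefore not independent of each other. Most of the late vomeronasal sum was Gnai2, at 230.6 and 241.2 scaled TPM for WT against 275 and 292 for cKO. Of the other tested genes of that list, Gnao1 and Calr4 differed by -0.165 and -0.266 in late polysomes and Meis2 by 0.087. Of the 11 tested immune cell genes 0 passed by limma and 1, Lyz2, by voom in lysate means, with a median of 0.13. Summed scaled TPM of the immune list in the early pools was 360.4 and 439.1 for WT, against 474.7 and 546.1 for cKO, and in the late pools 251.6 and 288 against 313.6 and 307.5, so that cKO was the higher in both fractions. Without Lyz2, left out after its values were seen, the sums overlapped in both, at 273.5 and 359.3 against 342.6 and 409.3 in the early and 191.2 and 220.1 against 213.7 and 218.7 in the late pools. The salivary markers Smgc and Prol1 and the vomeronasal receptor gene Vmn2r116 were at 0 in all libraries. The liver list, fitting to the Mup genes, summed to 3.11 to 6.42 scaled TPM in WT and 7.55 to 18.6 in cKO libraries. Alb, the albumin gene and the defining liver marker, stood at 1.73 and 2.25 in the early and late pools of cKO lysate 1. In all other libraries it was at most 0.221, and it had at most 17 reads in a library. Apoa1 likewise stood at 1.12 and 1.64 in cKO lysate 1 and at most 0.218 elsewhere. In cKO lysate 2 most of the liver sum was Ttr, at 14.8 and 11.0 scaled TPM against 1.27 and 0.665 in cKO lysate 1. Without Ttr, left out after its values were seen, the liver sums overlapped in both fractions, with cKO lysate 1 the highest in each. They were 5.47 and 5.02 for WT against 8.3 and 3.75 for cKO in the early pools. In the late pools they were 3.28 and 2.4 against 6.88 and 2.75. The part of these markers in the members' differences was not tested beyond those values.

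**Figure D4:**
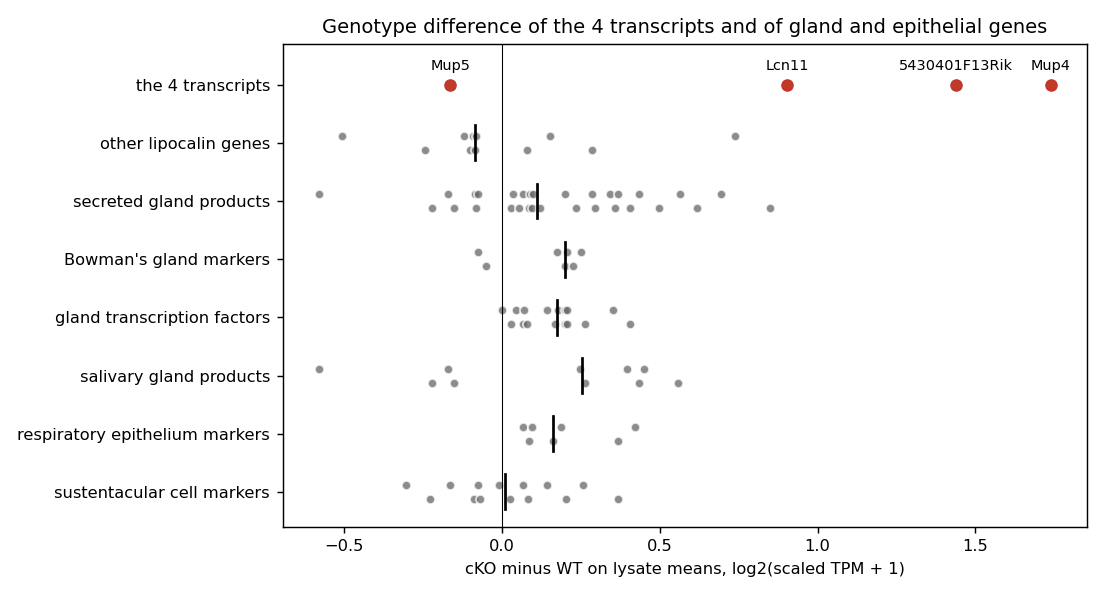
Genotype difference (lysate means, log2(scaled TPM + 1)) of each tested gene in the marker and product lists beside the 4 members; each point is a gene and each bar a list median. Mup4 (1.74), 5430401F13Rik (1.44) and Lcn11 (0.90) were chosen for being higher in cKO, so nothing is read from their place above the list medians. The medians of the 7 lists drawn run from -0.085 (other lipocalins) to 0.26 (salivary gland products). Bpifb5, of the secreted gland products, lies at 0.85.

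Genes that followed the members across the 8 libraries were sought by likeness, measured as Pearson's r of log2 levels over 8 libraries among 5457 genes that had a mean of at least 5 scaled TPM and a log2 range of at least 1. These correlations mix genotype, fraction and shared lysates and are a description only. Lcn11 was most like Egln3, a prolyl hydroxylase gene of the oxygen response (r = 0.992), Dbf4, which encodes a partner of the Cdc7 kinase (r = 0.989), and Ltbr, a receptor gene of the tumour necrosis factor family (r = 0.984). 5430401F13Rik was most like Egln3 (r = 0.985), Ltbr (r = 0.980) and Lcn11 (r = 0.980). Mup4 was most like Gch1, which encodes the entry enzyme of tetrahydrobiopterin synthesis (r = 0.938), the lysozyme gene Lyz2 (r = 0.936) and the odorant receptor gene Olfr30 (r = 0.933). Mup5 was most like Dcpp3, a gene of secreted salivary proteins (r = 0.940), Erdr1 (r = 0.932) and Iqck (r = 0.928). Among the members, r was 0.922 for Mup4 with 5430401F13Rik and 0.857 with Lcn11. Mup4 and Mup5 had r = 0.127. Egln3 in early polysomes stood at 8.91 and 9.52 scaled TPM in WT and at 15.9 and 17.0 in cKO, and in late polysomes at 5.56 and 5.16 in WT and 8.5 and 8.21 in cKO. It was hence the nearest in pattern to Lcn11 at a level far below it.

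Transcripts that mark sex are given because several lipocalins and urinary proteins are known to differ between male and female mice. Xist, transcribed from the inactive X, stood at 3.42 and 2.83 scaled TPM in WT and at 1.13 and 1.88 in cKO in early polysomes, and at 1.73 and 1.67 in WT and 0.695 and 0.573 in cKO in late ones. Xist was lower in both cKO libraries of each fraction. The Y-linked gene Ddx3y stood at 10.8 and 8.53 in WT and at 15.1 and 15.1 in cKO in early polysomes, and at 14.6 and 12.0 in WT and 22.7 and 15.8 in cKO in late ones. Uty, also Y-linked, stood at 6.88 and 7.04 in WT and at 13.9 and 10.1 in cKO in early polysomes, and at 9.92 and 8.09 in WT and 14.7 and 11.7 in cKO in late ones. Both were higher in both cKO libraries of each fraction. Kdm5d stood at 6.73 and 5.16 in WT against 8.76 and 7.11 in cKO in early polysomes, and at 5.36 and 3.94 against 9.85 and 6.99 in late ones, also without overlap. Eif2s3y stood at 23.4 and 19.2 against 29.3 and 19.5 in early polysomes, where the genotypes overlapped, and at 30.2 and 22.9 against 39.3 and 34.4 in late ones, where they did not. All 8 libraries held Y-linked and Xist reads. In lysate means the difference was -0.73 for Xist, 0.54 for Ddx3y, 0.32 for Eif2s3y, 0.55 for Kdm5d and 0.60 for Uty on the log2(scaled TPM + 1) scale, which at such low levels understates the differences. Of these 5 tested transcripts 0 passed by limma (4 at an unadjusted p under 0.05) and 1, Xist, by voom. Sex of the animals was not given in the sources used here, and its part in the members' differences was not tested.

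**Figure D5:**
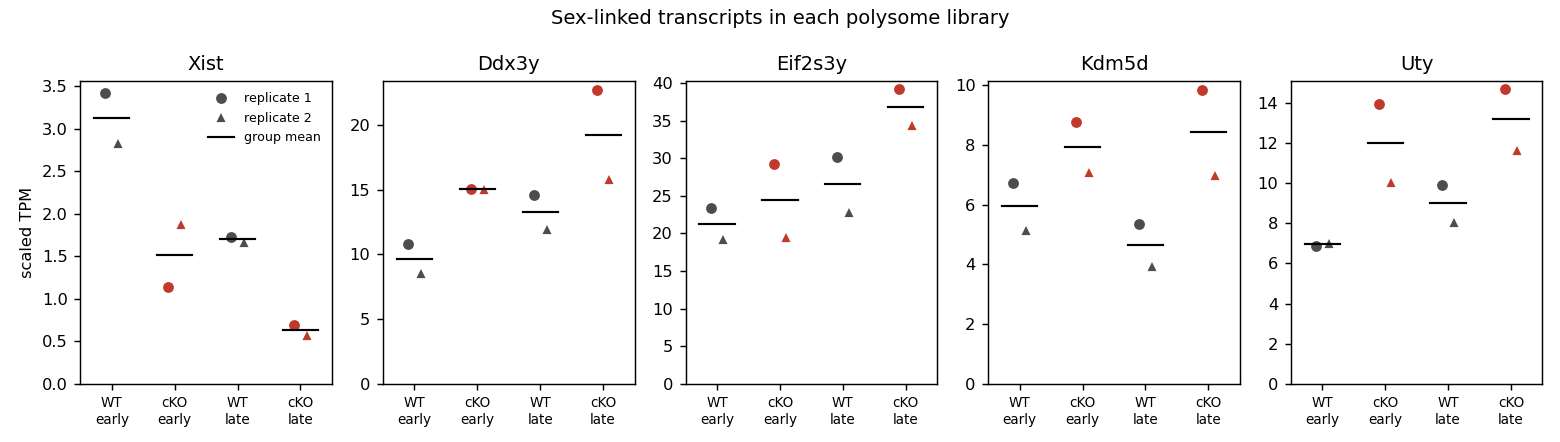
Scaled TPM of the sex-linked transcripts in the 8 libraries by genotype and fraction; each point is a library. Ddx3y and Uty are higher and Xist lower in the cKO libraries of each fraction, for example Ddx3y at 15.1 and 15.1 in cKO early against 10.8 and 8.53 in WT early.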

How the data were processed

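The 8 libraries were made with a stranded total RNA kit (SMARTer, Pico input), per the labels' protocols. The authors deposited 1 table of TPM values for all 8. Its build is mm10, and FastQC, cutadapt, STAR and DESeq2 were used in roles not stated, per the submitters' processing notes. The annotation, the counting and its strand setting were not given in the sources used here. The Cre line and 1 gene that the naming rule would include are not reported here. Groups came from the sample titles.

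The members and all gene lists were chosen with earlier results of these data known. TPM values were divided by median-ratio scale factors (0.931 to 1.06), log2-transformed after adding 1, and genes with a mean of at least 1 TPM were fitted with limma 3.58.1 in R 4.3.3 (mean-variance trend, Benjamini-Hochberg adjustment, threshold 0.05). The 4 groups of libraries shared one fit, and lysate means averaged early and late libraries of a lysate. TPM steps gave whole reads for 19783 genes, 100% of those above 0 in 2 or more libraries (tolerance 0.001 reads). These served depth and a voom alternative. On simulated data, 3-fold changes were recovered for 188 of 196 genes in late minus early (22 false calls, 15960 genes). Recovery was 175 of 199 in the early genotype comparison (13 false calls, 15968 genes) and 180 of 197 in the late one (25 false calls, 15955 genes). In lysate means it was 190 of 196 (20 false calls, 15952 genes). Simulated libraries were drawn independently around a mean per gene, with an equal spread setting for all genes and no lysate or replicate-number effect. Real libraries can differ from that setting, so these recoveries do not give the power of the real comparisons.

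Named genes were the members, Mex3a, the 3 most abundant genes and every gene past the threshold of a list, 3 neighbours on each side, the 3 genes most like each member and all sex-linked transcripts. The 5 gland products called by voom were named after their values were seen. Promoters, positions and gene names came from RefSeq (GRCm38.p6), and coding sequences from GENCODE transcripts. Of the 4 members, 3 matched the promoter table. Early and late libraries of a number share a lysate by their library names. Their deviations from group means correlated at r = 0.0862 in WT and 0.0502 in cKO. For WT and cKO libraries of the same number, the labels name nothing shared beyond that number. Their deviations correlated at r = 0.331 in early and 0.142 in late polysomes, and what else they share was not tested.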

Additional observations from a re-analysis of the deposited data

How the results depend on the processing

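Alternatives were 2 smaller pseudocounts (0.1 and 0.5), no filter or a mean of at least 5 TPM, no scaling, quantile normalization, no mean-variance trend, voom on recovered reads, replicate blocks, and leaving out each library or lysate. The count of genes called in early polysomes, 7 by limma, became 11 without a filter, 4 with a mean of at least 5 TPM, 12 by voom, and 0 to 9 with libraries left out (0 without WT early library 1, 589 at an unadjusted p under 0.05). The 2 called in late polysomes became 1 with a pseudocount of 0.1, 4 without a filter, 1 with a mean of at least 5 TPM, 5 without the trend, 15 by voom, and 0 to 13 with libraries left out (0 without WT late library 1 or 2, 796 and 1243 at an unadjusted p under 0.05). The 1 called in lysate means became 0 without a filter and 0 without the trend (limma, 2115 and 1674 at an unadjusted p under 0.05), 58 by voom, 82 with the replicate number as a block, and 1 to 10 with lysates left out. The cause was not tested. The block left the early and late counts at 7 and 2. The labels name nothing beyond this number that WT and cKO samples share, though their deviations correlated (r = 0.331 in early and 0.142 in late polysomes). Late minus early called 11094 genes, 11005 with the lysate as a block and 9979 to 10784 with libraries left out. Without scaling the share higher among them was 56.2% in place of 49.7%, and the median of all genes was 0.09 in place of -0.01. Mup4, Lcn11 and 5430401F13Rik kept a positive genotype difference under all alternatives run: Mup4 1.64 to 2.21 in early and 1.35 to 1.76 in late, Lcn11 0.76 to 1.01 and 0.76 to 0.91, and 5430401F13Rik 1.43 to 1.83 and 1.12 to 1.37. Mup5 ran from -0.28 to 0.43, from -0.86 to 0.05 and, in lysate means, from -0.57 to 0.24. The depth of the shallowest library, 7776792 reads, still gave at least 424 reads for each member.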
